A study of Mus musculus with 6 samples.

Results

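The BCL2 family holds the genes that set whether the outer mitochondrial membrane is opened during apoptosis. The 10 genes described here were chosen by name from the count table, which lists 55376 genes: the antiapoptotic Bcl2, Bcl2l1 and Mcl1, the effectors Bax and Bak1, and the BH3-only genes Bcl2l11, Bbc3, Pmaip1, Bid and Bad. Bulk RNA-seq was done on retinas of Wfs1-KO mice, labelled Wfs1-/-, and of WT mice, 3 retina samples per genotype, each from a different mouse aged 240 days. The mutant allele lacks exon 8 of Wfs1 in every cell of the body, and Wfs1 encodes wolframin, a membrane protein of the endoplasmic reticulum (ER). The sample labels give the strain of both groups as C57x129, whereas the study's methods describe a C57BL/6 J background, and no treatment is named. The study compared the genotypes at this age to look for changes that come before neurons are lost, and the comparison below asks whether transcripts of the apoptotic machinery differed at that stage.

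As background, BAX and BAK form the pores through which cytochrome c leaves the mitochondrion, after which APAF1 and caspase-9 start the caspase cascade. BCL-2, BCL-XL (from Bcl2l1) and MCL-1 hold the effectors in check, and the BH3-only proteins relay upstream damage by binding the survival proteins, the effectors or both. In the retina the family is known above all from retinal ganglion cells, whose death after optic nerve injury requires BAX. Much of its control is exerted on the proteins, by cleavage, phosphorylation and degradation, which counts of RNA do not measure.

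The BH3 motif is the short helix by which the proteins of the family bind each other, and its coding stretch is shown for 9 of the 10 genes because it is the element that joins genes of opposite role. Each line gives 27 coding bases, 5′ to 3′, from the GENCODE M21 transcript marked as principal. Capitals mark the codons of the conserved leucine and aspartate.
Bcl2: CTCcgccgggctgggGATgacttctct
Bcl2l1: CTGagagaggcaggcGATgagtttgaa
Mcl1: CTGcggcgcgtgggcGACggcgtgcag
Bax: CTCcggcgaattggaGATgaactggac
Bak1: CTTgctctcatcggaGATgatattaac
Bcl2l11: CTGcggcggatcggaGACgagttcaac
Bbc3: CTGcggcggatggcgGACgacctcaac
Bid: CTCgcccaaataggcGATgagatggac
Bad: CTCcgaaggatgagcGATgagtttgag
The stretches were found by translating each coding sequence and searching for leucine, 3 residues other than proline, then glycine, alanine or serine, then aspartate, a residue other than proline and a hydrophobic residue. The pattern occurred 1 time in each of the 9 coding sequences searched, while Pmaip1 was not searched here. It was also found in 9.94% of the 22527 mouse genes with a principal coding sequence, so the match by itself does not mark a family member. All 9 stretches lay within a single coding exon of mm10. Those of the survival genes were at chr1:106712575-106712601 (Bcl2, exon 1, minus strand), chr2:152829697-152829723 (Bcl2l1, exon 2, minus strand) and chr3:95659436-95659462 (Mcl1, exon 1, plus strand). Those of the effectors were at chr7:45465997-45466023 (Bax, exon 3, minus strand) and chr17:27022531-27022557 (Bak1, exon 4, minus strand). The BH3-only stretches were at chr2:128147150-128147176 (Bcl2l11, exon 3, plus strand), chr7:16313773-16313799 (Bbc3, exon 3, plus strand), chr6:120897289-120897315 (Bid, exon 4, minus strand) and chr19:6950792-6950818 (Bad, exon 3, plus strand).

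The libraries held between 17916885 and 101334381 counts. Wfs1 itself was at 61.4 to 69.9 CPM (counts per 1000000, with library sizes adjusted by TMM factors) in WT and at 9.63, 0.900 and 11.5 CPM in Wfs1-KO replicates 1, 2 and 3, so every mutant retina was far below every WT retina, in counts that include the exons left in the mutant allele. The tissue label was checked against rod genes, which summed to 45183 CPM in Wfs1-KO replicate 2 and to 60791 to 68673 CPM in the other 5 retinas. Wfs1-KO replicate 2 stood apart, with a mean correlation of log2 CPM to the other retinas of 0.918, against 0.962 to 0.971 for each of the others. Its Mueller glia sum was also the lowest, at 2903 CPM against 3153 to 4188. Among these genes Glul was lowest there, at 1949 CPM against 2325 to 3245, whereas Rlbp1 was highest, at 665 CPM against 480 to 625. Its cone, bipolar and amacrine sums lay within the range of the other 5. Sums for several other cell types were higher in it, and each marker gene given here had counts in all 6 retinas. The 5 blood genes summed to 12.3 to 41.2 CPM in WT and to 22.7, 479.9 and 20.1 CPM in the mutants, and the 7 microglia and macrophage genes to 29.6 to 35.1 CPM in WT and to 42.2, 178 and 28.8 CPM in the mutants. In Wfs1-KO replicate 2 against the other 5 retinas, the 4 melanocyte and choroid genes summed to 121 CPM against 6.40 to 14.5. The 5 pigment epithelium genes summed to 367 CPM against 45.3 to 155.8, through Ttr and Rgr, whereas Rpe65, Lrat and Best1 lay within the range of the others. Of these 5 genes, 1 was lower in the mutants without overlap, beside 3.94% of all tested genes. Without Wfs1-KO replicate 2, 1 of the 5 passed an adjusted p of 0.05 in edgeR's test, as did 0.125% of all tested genes. The 7 ganglion cell genes summed to 1308 CPM against 789.6 to 1082, although Nefl lay within the range of the others and Pou4f2 was lowest there. The sums of the 2 astrocyte genes, Gfap and Pax2, did not overlap, at 11.7 to 19.6 CPM in WT and 48.3, 105.5 and 21.9 CPM in the mutants. Both genes were higher without overlap, beside 5.01% of all tested genes, and 0 of the 2 passed with edgeR. The study reports stronger GFAP staining in mutant Mueller glia, so Gfap does not mark astrocytes alone here. The Mueller glia and cone sums also did not overlap between genotypes, and both were lower in the mutants. Of the 4 genes in each of these lists only 1 was lower without overlap, beside 3.94% of all tested genes. These were Glul, the most abundant of its list, and Opn1mw. Mueller glia sums were 3920 to 4188 CPM in WT and 3153, 2903 and 3543 CPM in the mutants. Cone sums were 920 to 976 CPM in WT and 792, 910 and 911 CPM in the mutants. The myelin sum was higher, at 36.3 to 43.6 CPM in WT and 46.0, 50.7 and 45.2 CPM in the mutants, although each of its 4 genes overlapped between genotypes. Gfap had an adjusted p of 0.979 with edgeR and 0.0499 with DESeq2. The neutrophil genes S100a8, S100a9 and Mpo had at most 46 counts in any retina. Xist and Ddx3y counts showed 1 male, WT replicate 3, with 4 and 1137 counts, among 5 females. In whole tissue, fewer cells of a type and less RNA per cell cannot be told apart.

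In WT retina the survival genes Mcl1 and Bcl2l1 were the most abundant of the 10 per unit of exon length. Levels between genes are given as RPKM, the CPM per kilobase of exon counted. Mcl1, whose protein is short-lived and quickly replaced, had 31.2 ± 1.82 RPKM (SD, n = 3), above 88.8% of tested genes. Bcl2l1 followed with 25.4 ± 2.99 RPKM and Bax with 15.4 ± 4.34 RPKM (SD, n = 3 each). Bad had 7.19 ± 1.73 RPKM and Bak1 5.61 ± 0.656 RPKM (SD, n = 3 each), and the WT ranges of this pair overlapped. Bcl2 had only 4.41 ± 0.656 RPKM, near the middle of all tested genes (percentile 49.5), so the gene that names the family ranked sixth of these 10. Bcl2l11 had 2.89 ± 0.272 RPKM (SD, n = 3). Bbc3 with 1.76 ± 0.711 RPKM and Bid with 1.38 ± 0.180 RPKM overlapped, and Pmaip1, with 0.400 ± 0.165 RPKM (SD, n = 3), was the lowest. The remaining 7 of the 9 neighbouring pairs in this order did not overlap across the WT retinas. In the mutant retinas the order was the same except that Bcl2 and Bak1 changed places. The exon length counted for Bax was 867 bases against 1576 in GENCODE M21, and 192 of its bases are shared with Gm45808 on the same strand, which had 0 counts in every retina, so its RPKM depends on the annotation used.

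**Figure D1:**
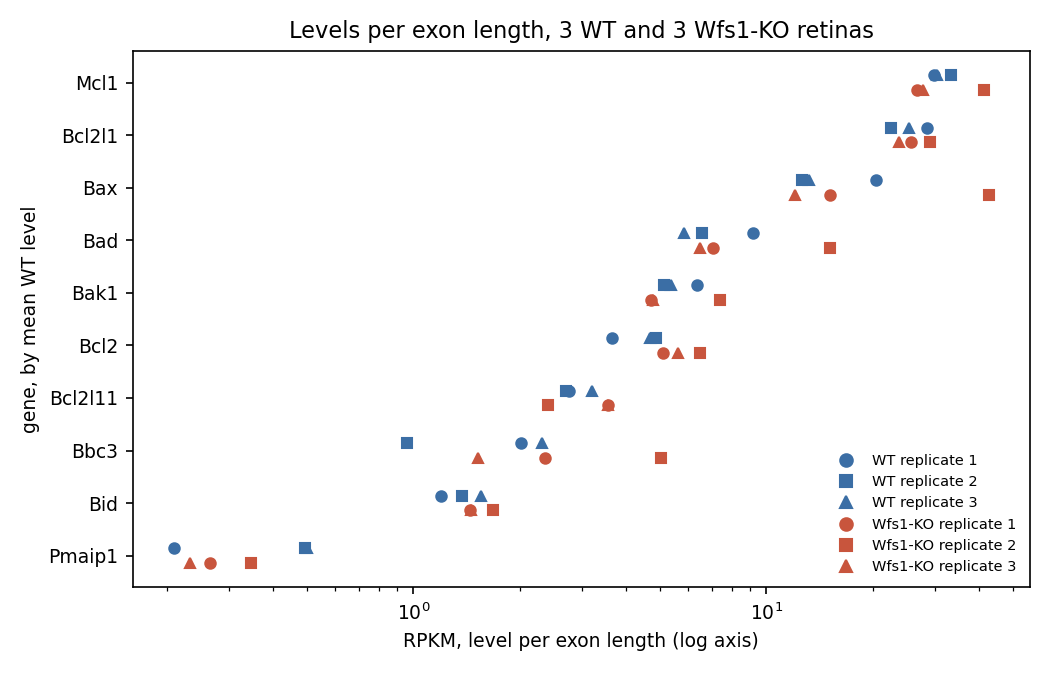
Level per exon length (RPKM, log axis) of each gene in every retina, ordered by mean WT level, with WT points above and Wfs1-KO points below. Mcl1 and Bcl2l1 head the order and Pmaip1 ends it, and Bax in Wfs1-KO replicate 2 lies at 42.7 RPKM, against 12.02 to 20.4 RPKM in the other 5 retinas.

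The 3 survival genes made up 59.6% to 67.0% of the summed RPKM of the 10 genes in WT and 62.4%, 50.7% and 65.5% in Wfs1-KO replicates 1, 2 and 3. The 2 effectors contributed 19.6% to 25.7% in WT and 21.6%, 33.1% and 19.3% in the mutants. The 5 BH3-only genes contributed 13.4% to 14.7% in WT and 16.0%, 16.2% and 15.2% in the mutants, so for this group alone the genotypes did not overlap. Each of these 5 genes overlapped between genotypes when taken singly in CPM, and Bad, the most abundant of them, shares exon bases with Gpr137. These shares are sums over genes of very different level and were not tested.

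None of the 10 genes passed the test between genotypes. All 10 had enough counts to be tested, with at least 24 counts in every retina, and 0 had an adjusted p under 0.05 or an unadjusted p under 0.05 (edgeR's quasi-likelihood test, Benjamini-Hochberg adjustment over the 18547 tested genes). Over all tested genes, 0.0108% passed the first threshold and 2.81% the second. With DESeq2, the tool the study's methods name, the count was also 0 of 10, where 0.246% of all tested genes passed. The study reports far more genes at its threshold, so this run did not reproduce its list. It also names cell death among the pathways lowered in mutant retinas. Adjusted p-values of the 10 genes lay between 0.979 and 0.999 with edgeR. Wfs1 itself, at a log2 fold change of -3.15, also had an adjusted p of 0.979 with edgeR, so a large change can go uncalled in this test. The adjusted p of Wfs1 was 0.00092 with DESeq2 and 2.84e-05 with edgeR without Wfs1-KO replicate 2. By estimate 9 genes were higher and 1, Pmaip1, was lower, with a median log2 fold change of 0.15 against 0.02 over all tested genes, and without Wfs1-KO replicate 2 the median was -0.08 against -0.00038. The estimate of Bak1 was so near 0 that its sign turned under other tests, another normalization and a looser filter. For 6 genes (Bcl2, Bcl2l1, Mcl1, Bak1, Bcl2l11 and Bid) the 95% interval of the log2 fold change lay inside a 2-fold change in either direction, as it did for 52.3% of all tested genes. For Bax, Bbc3, Bad and Pmaip1 a 2-fold change remained within the interval.

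**Figure D2:**
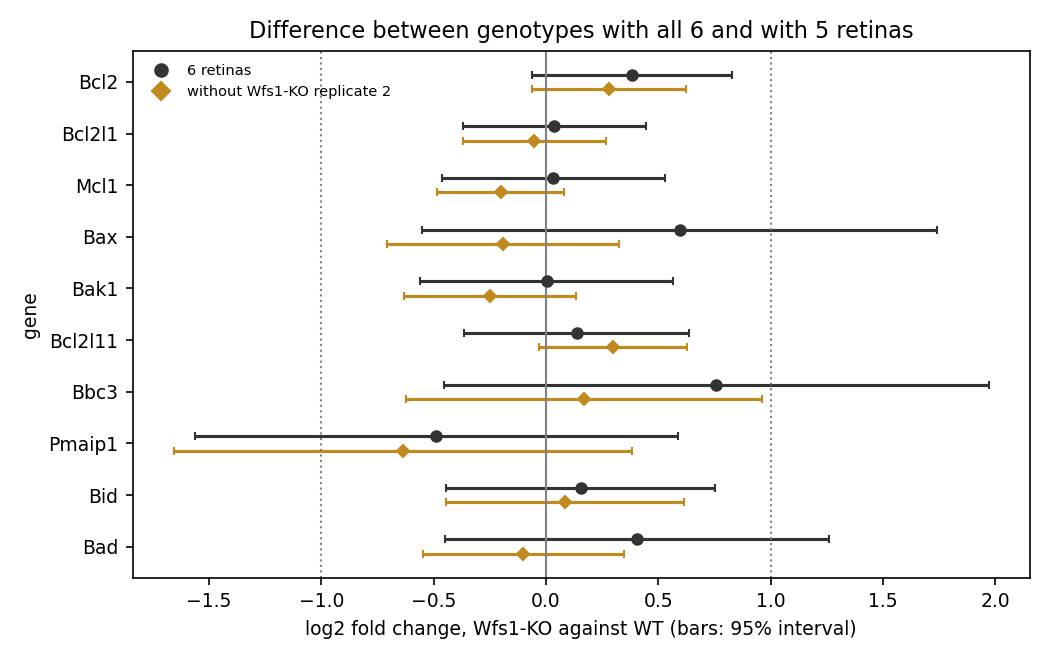
Log2 fold change of each gene, Wfs1-KO against WT, with its 95% interval from edgeR's fit, for all 6 retinas (circles) and without Wfs1-KO replicate 2 (diamonds), where dotted lines mark a 2-fold change. Every interval spans 0, and the points of Bax, Bad, Bak1, Mcl1 and Bcl2l1 move from above 0 to below it when that retina is left out.

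Among the survival genes, Bcl2 was higher in each mutant retina than in each WT retina, by an amount that did not pass the test. Bcl2 (ENSMUSG00000057329.7, chr1:106538178-106714274, minus strand) encodes the founding survival protein, which sits on mitochondria and on the ER. It had 33.5, 44.6 and 42.9 CPM in WT replicates 1, 2 and 3 and 46.8, 59.4 and 51.5 CPM in the mutants. The groups did not overlap, although the highest WT and the lowest mutant retina were only 44.6 and 46.8 CPM. Of all tested genes, 5.01% were higher without overlap, 3.94% lower without overlap and 8.96% either, and Bcl2 was the 1 gene of the 10 to do so. Its log2 fold change was 0.38 (standard error, SE, 0.19, 95% interval -0.06 to 0.83, unadjusted p = 0.0824, adjusted p = 0.979, edgeR's test). Without Wfs1-KO replicate 2 it was 0.28 (SE 0.15, unadjusted p = 0.0980, edgeR's test) and the genotypes still did not overlap. The antisense gene D630008O14Rik shares 558 bases with the exons of Bcl2, and it had 6 counts in Wfs1-KO replicate 2 and 0 elsewhere.

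Bcl2l1 and Mcl1, the most abundant of the 10 genes, had group means that differed by less than the spread between retinas of a genotype. Bcl2l1 (ENSMUSG00000007659.18, chr2:152780668-152831728, minus strand) encodes BCL-XL, the main survival protein of adult neurons. It had 110.5, 87.3 and 98.8 CPM in WT and 99.5, 112.7 and 92.1 CPM in the mutants, with full overlap and a log2 fold change of 0.037 (SE 0.17, 95% interval -0.37 to 0.44). The counts do not separate its long form from the proapoptotic short form, since they are summed over the exons of the gene. Mcl1 (ENSMUSG00000038612.16, chr3:95658788-95663176, plus strand) had 102.0, 113.7 and 104.1 CPM in WT and 91.2, 140.8 and 95.04 CPM in the mutants. Replicate 2 was thus the highest of all 6 retinas and the other mutants were the lowest. The log2 fold change was 0.032 (SE 0.21, 95% interval -0.46 to 0.53), and -0.20 (SE 0.13, unadjusted p = 0.147, edgeR's test) without that retina.

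The effector Bax was high in 1 mutant retina and showed no shared shift in the others. Bax (ENSMUSG00000003873.11, chr7:45461697-45466898, minus strand), which is required for the death of injured ganglion cells, had 17.7, 10.9 and 11.4 CPM in WT. The mutants had 13.1, 37.0 and 10.4 CPM, so that the highest and the lowest value of the 6 were both mutant. The log2 fold change was 0.59 (SE 0.49, 95% interval -0.55 to 1.74, adjusted p = 0.979, edgeR's test). Without Wfs1-KO replicate 2 it was -0.19 (SE 0.23, 95% interval -0.71 to 0.33). Bak1 (ENSMUSG00000057789.14, chr17:27019810-27029009, minus strand) encodes the effector that resides on mitochondria before any signal. It had 15.2, 12.2 and 12.8 CPM in WT and 11.3, 17.6 and 11.4 CPM in the mutants, again with replicate 2 on top and the other mutants at the bottom. Its log2 fold change was 0.0031 (SE 0.24, 95% interval -0.56 to 0.57), and -0.25 (SE 0.17) without that retina. Of its exons, 256 bases are shared with Ggnbp1 on the opposite strand, which had 2.36 to 3.75 CPM.

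**Figure D3:**
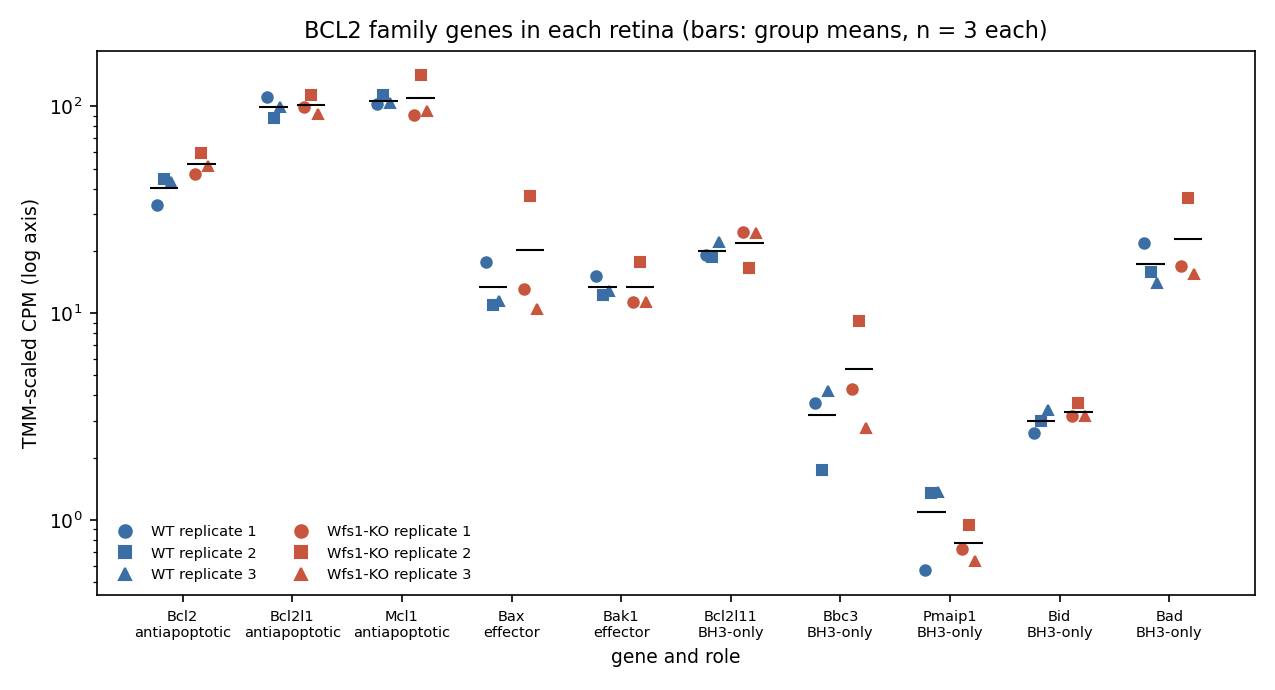
TMM-scaled CPM (log axis) of each gene in every retina, with bars at the group means (n = 3 each). Wfs1-KO replicate 2 (red squares) is the highest point for 8 of the 10 genes, and Bcl2 is the gene whose mutant points all lie above its WT points.

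The ratio of an effector to its survival partner is a customary summary of the family, and no such ratio separated the genotypes. Bax to Bcl2, on RPKM, was 5.57, 2.58 and 2.81 in WT and 2.96, 6.58 and 2.14 in the mutants. The highest ratio of each genotype stood well apart from the other values, in WT replicate 1 and Wfs1-KO replicate 2. Bax to Bcl2l1 was 0.716, 0.560 and 0.518 in WT and 0.592, 1.47 and 0.507 in the mutants. Bak1 to Mcl1 was 0.213, 0.154 and 0.176 in WT and 0.177, 0.179 and 0.171 in the mutants, so the mutant values lay within the WT range. The mean log2 difference between genotypes was 0.02 for Bax to Bcl2, 0.36 for Bax to Bcl2l1 and -0.03 for Bak1 to Mcl1. Leaving out each retina in turn gave -0.45 (without Wfs1-KO replicate 2) to 0.37 (without WT replicate 1) for Bax to Bcl2, -0.11 (without Wfs1-KO replicate 2) to 0.66 (without Wfs1-KO replicate 3) for Bax to Bcl2l1, and -0.14 (without WT replicate 2) to 0.097 (without WT replicate 1) for Bak1 to Mcl1. The ratios were described and not tested.

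**Figure D4:**
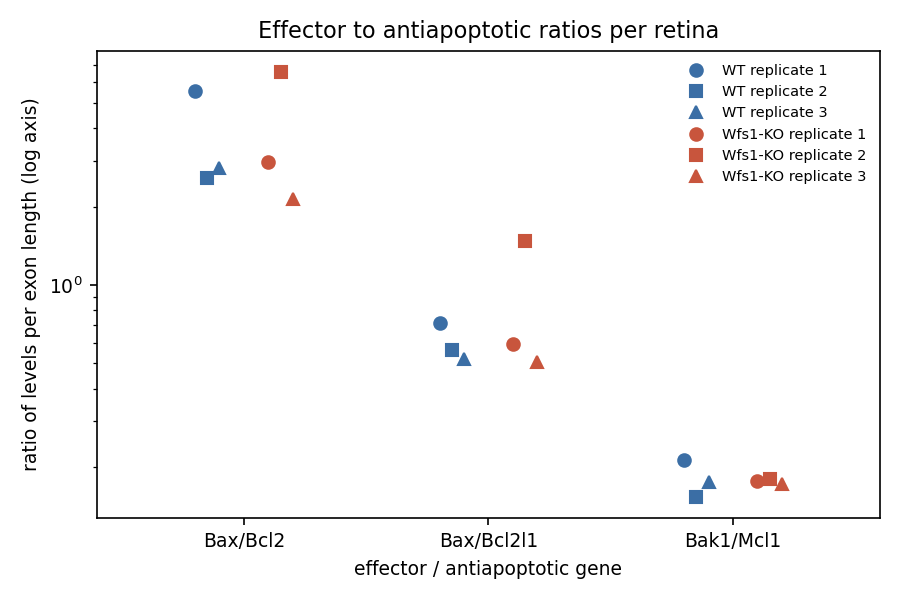
Ratio of the level per exon length (log axis) of an effector to a survival gene in each of the 6 retinas. For Bax to Bcl2, WT replicate 1 (5.57) and Wfs1-KO replicate 2 (6.58) lie above the other 4 retinas, and for Bak1 to Mcl1 the 3 mutant retinas lie within the WT range.

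Of the BH3-only genes, Bbc3 had the largest estimate, and Bcl2l11 was the one whose mutant retinas were split in the opposite way, with replicate 2 at the bottom. Bbc3 (ENSMUSG00000002083.13, chr7:16309616-16318205, plus strand) encodes PUMA, a target of p53 that binds all survival proteins. It had 3.66, 1.74 and 4.20 CPM in WT and 4.29, 9.12 and 2.77 CPM in the mutants. WT replicate 2 was the lowest and Wfs1-KO replicate 2 the highest, with the remaining retinas intermixed. The log2 fold change was 0.76 (SE 0.52, 95% interval -0.45 to 1.97, adjusted p = 0.979, edgeR's test) and 0.17 (SE 0.36) without Wfs1-KO replicate 2.

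Bcl2l11 (ENSMUSG00000027381.16, chr2:128126038-128162547, plus strand) encodes BIM, which is raised in neurons deprived of survival factors. It had 19.1, 18.6 and 22.1 CPM in WT and 24.5, 16.6 and 24.5 CPM in the mutants. It was the 1 gene of the 10 that was lowest in Wfs1-KO replicate 2, as were 36.8% of all tested genes, while the other mutants exceeded every WT retina. The log2 fold change was 0.14 (SE 0.21, 95% interval -0.37 to 0.64) with all retinas and 0.30 (SE 0.15, unadjusted p = 0.0709, adjusted p = 0.963, edgeR's test) without that retina.

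Bad (ENSMUSG00000024959.14, chr19:6941861-6951899, plus strand) encodes a protein that survival kinases keep inactive by phosphorylation. It had 21.9, 15.7 and 14.02 CPM in WT and 16.9, 36.1 and 15.5 CPM in the mutants, with replicates 1 and 3 inside the WT range. The log2 fold change was 0.40 (SE 0.36) and became -0.10 (SE 0.20) without Wfs1-KO replicate 2. Bad shares 517 exon bases with Gpr137 on the opposite strand, which had 38.5 to 53.7 CPM. Since the library kit does not mark the strand, reads of those bases cannot be assigned to either gene.

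Bid and Pmaip1 were the scarcest of the 10 genes. Bid (ENSMUSG00000004446.12, chr6:120892854-120916853, minus strand) links death receptors to mitochondria once caspase-8 has cut its protein. It had 2.62, 3.01 and 3.41 CPM in WT and 3.17, 3.67 and 3.18 CPM in the mutants, which gave 0.15 on the log2 scale (SE 0.26, 95% interval -0.44 to 0.75). Pmaip1 (ENSMUSG00000024521.8) lies on chromosome 18 and encodes NOXA, which binds MCL-1. It had 0.572, 1.34 and 1.36 CPM in WT and 0.728, 0.947 and 0.636 CPM in the mutants. WT replicate 1 was below all mutants and the other WT retinas were above them. With 24 to 75 counts per retina, its log2 fold change of -0.49 had a 95% interval from -1.56 to 0.59, which spans changes of the size estimated for Bcl2 in either direction.

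Wfs1-KO replicate 2 was the highest of the 6 retinas for 8 of the 10 genes, whereas it was the highest for 38.4% of all tested genes. Part of what set this retina apart followed exon length. Expressed as log2 CPM minus the mean of the other 5 retinas, the median was 0.90 for the 1910 tested genes under 1 kb, 0.63 for those of 1 to 2 kb, 0.04 for 2 to 4 kb, -0.40 for 4 to 8 kb and -0.62 over 8 kb. Bax, the shortest of the 10 genes, was 1.57 above the other retinas and Bbc3 (1814 bases) 1.51, while Bcl2l11 (6896 bases) was at -0.38. Bbc3 exceeded the median of its length class by 0.88 and Bax by 0.66. Bad and Bcl2 did not follow the trend, since Bad was 1.12 above at 2393 bases and Bcl2 0.45 above at 9157 bases. Each of the 10 genes lay above the median of its own length class, by 0.02 for Bcl2l11 and by up to 1.08 for Bad, as did 50% of all tested genes. Other family genes of 4 to 8 kb lay on both sides of their median of -0.40. Bcl2l13 was at -1.36, Bcl2l2 at -0.78 and Bmf at 0.09. WT replicate 1 showed a weaker trend of the same sign, with a median of 0.08 under 1 kb and -0.35 over 8 kb, and was second to Wfs1-KO replicate 2 for Bax, Bad, Bak1 and Bcl2l1. When the length trend of each library was removed in edgeR's fit, an alternative chosen after the data were seen, the log2 fold change was 0.17 for Bax (SE 0.25), 0.56 for Bbc3, 0.32 for Bad and 0.51 for Bcl2 (SE 0.26, unadjusted p = 0.0917). The higher blood, microglial and pigment cell sums given above came from the same retina, and their part in these values was not tested.

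**Figure D5:**
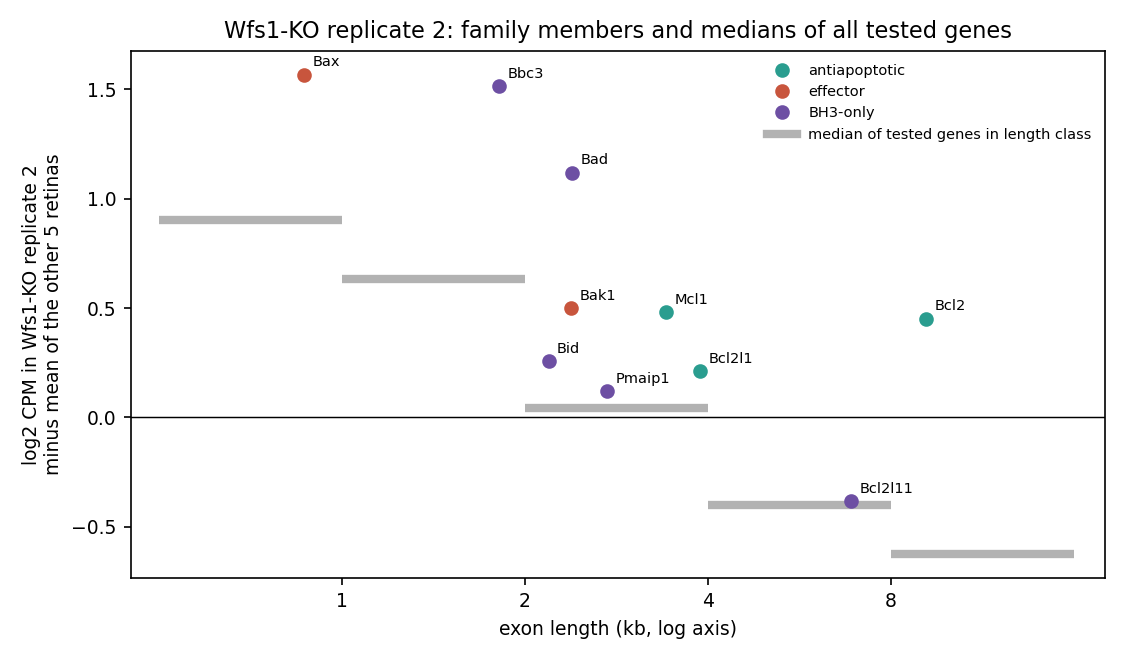
Log2 CPM in Wfs1-KO replicate 2 minus the mean of the other 5 retinas, against exon length (log axis), for the 10 genes coloured by role, with grey bars at the median of all tested genes in each length class. The grey bars fall from 0.90 under 1 kb to -0.62 over 8 kb, and each of the 10 genes lies above the bar of its class, as do 50% of all tested genes.

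Left without that retina, the 2 other mutants gave a different picture for single genes. Bcl2 and Bcl2l11 were then higher than every WT retina, Mcl1 and Bak1 were lower than every WT retina, and the other 6 genes overlapped. Such separation was common in this smaller comparison, since 22.5% of all tested genes did not overlap. Still 0 of the 10 genes passed (edgeR's test, adjusted p between 0.963 and 0.985) and 0 had an unadjusted p under 0.05, where 0.125% of all tested genes passed the adjusted and 5.19% the unadjusted threshold. For 9 genes, all except Pmaip1, the 95% interval then excluded a 2-fold change in either direction, as for 69.3% of tested genes.

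The rest of the family was examined through a list of 15 further genes, of which 11 were tested and 0 passed in either direction. Their median log2 fold change was 0.32 against 0.02 over all tested genes, and 0.050 without Wfs1-KO replicate 2. At an unadjusted p under 0.05, which 2.24% of all tested genes reached while being higher in the mutants, there was 1 gene. This was Bmf, a BH3-only gene whose protein is held at the cytoskeleton until cells lose attachment, with 14.09, 10.2 and 7.61 CPM in WT and 22.7, 14.14 and 16.7 CPM in the mutants. Its genotypes did not overlap, but WT replicate 1 and Wfs1-KO replicate 2 had nearly the same value. The log2 fold change was 0.74 (SE 0.29, unadjusted p = 0.0366, adjusted p = 0.979, edgeR's test) and 0.87 (SE 0.24, unadjusted p = 0.00472, adjusted p = 0.533) without that retina. Bcl2l2, the gene of the neuronal survival protein BCL-W, had a higher level per length than any of the 10 genes, with 50.2 ± 2.97 RPKM (SD, n = 3) in WT. It was lowest in Wfs1-KO replicate 2, with 118 CPM there and 194 to 218 CPM in the other 5 retinas, which gave a change of -0.25 (SE 0.24) on the log2 scale. Bnip3 and Bnip3l, which act in the removal of mitochondria, had 54.3 ± 8.01 and 52.0 ± 7.36 RPKM in WT (SD, n = 3 each), and log2 fold changes of -0.19 and 0.16. The effector relative Bok had a log2 fold change of 0.32 (SE 0.22) and Bcl2l13 one of -0.28 (SE 0.35). The near-identical Bcl2a1a, Bcl2a1b and Bcl2a1d, survival genes of blood cells that can share reads, had at most 39 counts, and that count was Bcl2a1b in Wfs1-KO replicate 2.

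Downstream of the family, 0 of the 24 listed genes of the apoptosome, caspases and their inhibitors passed in either direction, with 9 estimates above and 15 below 0 and a median log2 fold change of -0.08. Apaf1, Casp9 and Cycs, which together form the apoptosome, had log2 fold changes of -0.14, -0.14 and -0.18 with SEs of 0.30, 0.21 and 0.19. Of the 24 genes, 2 were lower in the mutants without overlap, beside 3.94% of all tested genes, namely Dffa and Dffb, which encode the inhibitor and the nuclease of apoptotic DNA cleavage, at -0.31 (SE 0.18) and -0.31 (SE 0.22). Xiap, an inhibitor of caspases with an exon length of 7750 bases, had 377 to 713 CPM in WT and 542, 170 and 588 CPM in the mutants, with a log2 fold change of -0.35 (SE 0.46).

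Of the 14 partners of the family on mitochondria and the ER, 0 passed (median 0.16), and of the 11 ligases and kinases that act on its proteins, 0 passed (median -0.02). Of the 23 upstream stress regulators, 0 passed in either direction and the median was -0.04. Trp53 had a log2 fold change of 0.08 (SE 0.20), Jun -0.15 (SE 0.20) and Foxo3 0.07 (SE 0.21). Ddit3, which encodes the ER stress factor CHOP, had 57.9, 42.7 and 44.0 CPM in WT and 48.3, 97.9 and 46.0 CPM in the mutants. At 890 bases it belongs to the shortest class, and its log2 fold change of 0.41 (SE 0.32) was -0.038 (SE 0.16) without Wfs1-KO replicate 2. Stat3 had 60.3 to 66.9 CPM in WT and 81.4, 99.5 and 74.3 CPM in the mutants, without overlap (log2 fold change 0.41, SE 0.17, unadjusted p = 0.0478, adjusted p = 0.979, edgeR's test). It was the 1 gene of these 23 that was higher without overlap, beside 5.01% of all tested genes. Its unadjusted p was 0.0528 without Wfs1-KO replicate 2 and 0.0583 with the length trend removed (edgeR), and 0.0765 with DESeq2.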

How the data were processed

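The authors trimmed the reads, aligned them to mm10 and counted reads on exons per gene with featureCounts. The submitters' processing notes name Trimmomatic 0.39, STAR 2.5.3a and featureCounts 1.6.4, while the study's methods give other versions of Trimmomatic and STAR. They deposited raw counts without normalization. Columns were matched to samples by name, C for control and W for Wfs1 with the replicate number, and 2 columns matching no listed sample were not used. All 8 columns are raw counts. The test was edgeR's quasi-likelihood test (version 4.0.16, R 4.3.3) with TMM factors and filterByExpr, the model held genotype alone, and the 95% intervals use the degrees of freedom of that model. Alternatives used DESeq2 1.42.0 and limma 3.58.1. The procedure was run on counts simulated from the dispersion of its own fit. Those counts held no outlying retina and no length trend, so that run cannot show how the test behaves with either. The 6 libraries used held no duplicates. The 10 genes and all lists were chosen with earlier results of these data known. Beside the 10 genes, the text names Wfs1, listed genes with an unadjusted p under 0.05 and no overlap (marker genes excepted), further family genes of at least 1 RPKM, and apoptosis and stress genes fixed by name, of which 1 is not reported here. The Bcl2a1 genes, Dffa and Dffb, the overlapping genes and the marker and sex genes were named after their values were seen. A floor of 3 counts corresponds to 0.0291 to 0.170 CPM, for counting error only.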

Additional observations from a re-analysis of the deposited data

How the results depend on the processing

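The count of 0 among the 10 genes was the same under all 14 alternatives run, limma-voom and RLE normalization among them, and the smallest adjusted p of any of the genes was 0.826. Over all tested genes, 2 passed in the main comparison, 49 with DESeq2, 9 without a low-count filter, 6 with the exon-length trend removed, 95 with DESeq2 without Wfs1-KO replicate 2, and 0 to 24 when a retina was left out (24 without Wfs1-KO replicate 2). Of 140 values of the 10 genes, 118 kept their direction and 22 turned. Bak1, close to 0, was -0.015 with DESeq2, -0.0086 with RLE normalization, -0.051 with limma-voom, -0.035 without a filter, -0.023 with a replicate block and -0.065 with the length trend removed, and Mcl1 was -0.0033 without a filter. With DESeq2 without Wfs1-KO replicate 2 the values were -0.052 for Bcl2l1, -0.20 for Mcl1, -0.19 for Bax, -0.25 for Bak1 and -0.10 for Bad. Leaving out each retina in turn gave -0.051 to 0.12 for Bcl2l1, -0.20 to 0.14 for Mcl1, -0.19 to 0.90 for Bax, -0.25 to 0.11 for Bak1 and -0.10 to 0.61 for Bad, in each case lowest without Wfs1-KO replicate 2. Bcl2l1 without WT replicate 2, Mcl1 without WT replicate 1 or 3 and Bak1 without WT replicate 2 or 3 also turned, at values near 0. The median of the further family genes was 0.68 with DESeq2, 0.50 without a filter, 0.11 with at least 10 counts in every retina and 0.050 to 0.42 when a retina was left out, where the filters change which scarce genes are tested. Leave-one-out medians ranged from -0.14 to 0.011 for the apoptosome and caspases, -0.052 to 0.28 for the mitochondrial and ER partners and -0.14 to 0.074 for the stress regulators. The ratio differences ranged from -0.45 to 0.37 for Bax to Bcl2, -0.11 to 0.66 for Bax to Bcl2l1 and -0.14 to 0.097 for Bak1 to Mcl1. The order of levels in WT was the same under TPM-like scaling and without each WT retina. Same-numbered retinas are different mice, and their deviations from the group means correlated at -0.23, -0.11 and 0.08. Other combinations of a WT and a mutant retina gave -0.24 to 0.27. Deviations from a mean of 3 retinas depend on each other, so these values cannot show whether same-numbered libraries were handled together. With the replicate block 0 of the 10 genes and 1 of all genes passed. Pmaip1 had the fewest counts of the 10 genes. Causes of the changes named here were not tested.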
